A study of Cavia porcellus with 30 samples.

Results

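The kidneys of guinea pigs killed 9 h after a single high dose of mercuric chloride (1.50 mg/kg) were compared with those of animals given vehicle and killed at the same time. The comparison holds 10 of the 30 kidney samples in the series, 5 per group, and every sample was chosen by its label for agent and time point. All animals were male Hartley guinea pigs, bought at 4 weeks of age and kept for 7 days, then fitted with a catheter in the jugular vein and given another 7 days to recover. Vehicle (saline) or mercuric chloride was injected into the peritoneum, food was withheld for the 9 h that followed, and one powdered whole kidney sample per animal was sequenced as stranded poly-A RNA. The animals are called here by the number that ends their label, which is 31, 32, 58, 59 and 60 with vehicle and 38 to 42 with the high dose. The other groups of the series received a low dose (1.00 mg/kg) or were killed at 33 h, and they are used only where they help to describe the high dose at 9 h.

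Inorganic mercury is a classic nephrotoxicant. It binds strongly to thiol groups, is taken up by the epithelial cells of the renal proximal tubule, and can injure or kill them. These cells reabsorb most of the filtered solutes and are packed with transporters, metabolic enzymes and mitochondria, so their transcripts make up a large part of whole kidney RNA. Cells exposed to heavy metals are known to induce metallothioneins, heat shock proteins and enzymes of glutathione metabolism.

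For each of 25824 Ensembl transcripts, the deposited files give an estimated count beside a TPM (a level scaled for transcript length). They do not pair transcripts with gene names. The transcripts are therefore given by identifier. For some of them, the readable part of the study's gene lists pairs the identifier with a guinea pig Ensembl gene and a rat Entrez gene, and these identifiers are repeated without a name. Kidney markers could not be looked up for the same reason, so the tissue rests on the labels. The total of estimated counts ranged from 27319444 to 36072327 with vehicle and from 23134713 to 33446127 with the high dose. Log2 CPM (counts scaled to a common library total) of animals of the same group had a Pearson's r between 0.938 and 0.964 over transcripts, and none of these 20 pairs agreed within sampling noise. In vehicle animal 59, a single transcript took 13.7% of all counts, which is described below with the abundant transcripts. Nothing in the labels marks a batch, although the vehicle animals carry 2 separate runs of numbers.

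With the high dose, 3328 transcripts were higher and 3134 were lower than with vehicle at 9 h. These are 16.9% and 15.9% of the 19729 transcripts tested, or 32.8% in all, with Benjamini-Hochberg adjustment of the quasi-likelihood p-values of edgeR and a limit of 0.1. Most of these changes were small. The median log2 fold change was 0.45 among the transcripts that rose and -0.47 among those that fell, and 1038 transcripts (5.26% of those tested) changed at least 2-fold. Of these, 551 rose (2.79%) and 487 fell (2.47%). Among the 19729 transcripts tested, there were 166 rises and 101 falls of at least 4-fold, and 84 rises and 52 falls of at least 8-fold. Large changes thus leaned toward rises, but part of these were at low levels, where counting error is largest. Of the rises of at least 2-fold, 162 lay below 1 CPM in the vehicle animals of 33 h, against 74 of the falls. In bulk tissue, fewer cells of a type and less RNA per cell cannot be told apart. With only vehicle animals 31 and 32 as controls, 125 transcripts passed the threshold, 73.6% of them higher, against 51.5% with all 5 controls. Fewer controls also give a weaker test, and no other pair of controls was tried. The number and the choice of controls cannot be told apart here. A test against a fold change of 1.2 in place of no change called 1990 transcripts.

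For 3233 transcripts, or 16.4% of those tested, the 5 high-dose values all lay on the same side of the 5 vehicle values. Of these, 1562 were higher (7.92%) and 1671 were lower (8.47%). Among the transcripts called, 3159 (48.9% of the calls and 16% of all transcripts tested) showed no overlap, 1524 of them higher and 1635 lower. This count was 1645 with all 10 vehicle animals, 1618 when tested against a fold change of 1.2 and 125 with vehicle animals 31 and 32 only. Nearly all of these gaps were narrow. Among the 16707 transcripts with a vehicle mean of at least 1 CPM, only 31 called transcripts had every high-dose animal at least 2-fold above the highest vehicle animal, and only 21 had every high-dose animal at least 2-fold below the lowest vehicle animal.

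The 10 largest rises without overlap, among transcripts whose mean log2 CPM was 1 or more, had log2 fold changes of 4.08 to 7.56 and adjusted p-values of 1.8e-06 to 0.011 (edgeR). The transcript just outside this list, ENSCPOT00000020078.2, had a log2 fold change of 3.82. These 10 transcripts did not behave alike. Some were raised by a similar factor in every treated animal, while others were raised steeply in animals 38, 40 and 42 and only slightly in animals 39 and 41. A pair of low level is described apart, of which ENSCPOT00000044877.1 was fairly even and ENSCPOT00000009824.3 followed neither pattern.

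Among the even rises, ENSCPOT00000044307.1 (gene ENSCPOG00000033531, paired with rat Entrez genes 689415 and 100362623) was at 56.5, 67.7, 114, 136 and 85.2 CPM in vehicle animals 31, 32, 58, 59 and 60. With the high dose, it was at 3157, 2083, 2797, 3068 and 2724 CPM in animals 38 to 42. Every treated animal was at least 15.4-fold above the highest vehicle animal. Its mean rose from 91.7 ± 32.7 to 2766 ± 422 CPM (SD, n = 5 each), which is a log2 difference of 4.92 (standard error, SE, 0.266, edgeR adjusted p = 9.1e-06). This transcript went from a moderate level with vehicle to a very high level with the high dose. Its log2 fold change with the low dose at 9 h was 4.64, and at 33 h the high dose gave 4.44.

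ENSCPOT00000040875.1 was at 44.0, 33.4, 49.8, 58.1 and 70.0 CPM in the vehicle animals, in the same order. It was at 1364, 1541, 1047, 1907 and 1419 CPM in animals 38 to 42. Here animals 39 and 41 were the highest of the treated animals, not the lowest. The mean rose from 51.1 ± 13.9 to 1456 ± 312 CPM (SD, n = 5 each), which is a log2 difference of 4.83 (SE 0.237, edgeR adjusted p = 5.5e-06). The low dose at 9 h gave nearly the same value, 4.82, and the direct difference between the doses was 0.01 on the log2 scale (SE 0.154). At 33 h, the log2 fold change with the high dose was 2.92.

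ENSCPOT00000001022.3 (gene ENSCPOG00000001014, rat Entrez gene 114846) was at 33.4 to 45.3 CPM with vehicle and at 768, 474, 629, 596 and 799.9 CPM in animals 38 to 42. The groups were separated by at least 10.5-fold. Its log2 fold change of 4.08 (SE 0.161) had the smallest adjusted p-value of the 10 rises, 1.8e-06 (edgeR). ENSCPOT00000020174.2 (gene ENSCPOG00000021634, rat Entrez gene 307404) went from 0.753 ± 0.225 CPM to 19.7 ± 8.69 CPM (SD, n = 5 each), and its treated animals were at 22.5, 10.4, 22.1, 11.9 and 31.6 CPM. This transcript was less even, with a 3.04-fold span among the treated animals. Animals 39 and 41 were the lowest of these, but still more than 10-fold above the vehicle mean.

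Of the transcripts with a vehicle mean of at least 1 CPM, 7 had every treated animal at least 4-fold above every vehicle animal. They were picked after their values were seen. They include ENSCPOT00000044307.1, ENSCPOT00000040875.1 and ENSCPOT00000001022.3. ENSCPOT00000020078.2 lay between 4.95 and 7.82 CPM with vehicle and between 52.0 and 117 CPM with the high dose. ENSCPOT00000026740.2 lay between 100.1 and 189 CPM with vehicle and between 1242 and 1770.2 CPM with the high dose. ENSCPOT00000035308.1 lay between 58.7 and 78.5 CPM with vehicle and between 339 and 482 CPM with the high dose. The last of the 7 was ENSCPOT00000047612.1, with 9.18 to 14.7 CPM with vehicle and 63.6 to 123 CPM with the high dose. In each of the 7, the highest treated animal was at most 2.24-fold above the lowest, which the choice by the lowest treated animal favours. Only 1 fall, also picked after its values were seen, had a gap of this width. ENSCPOT00000022566.2 was at 0.613 to 3.96 CPM with vehicle and at 0 to 0.113 CPM with the high dose, a log2 fold change of -5.17 (edgeR adjusted p = 0.0059).

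The uneven rises had a different pattern. ENSCPOT00000013672.3 (gene ENSCPOG00000013537, rat Entrez gene 29461) was at 0.793, 0.117, 0.555, 0.383 and 0.293 CPM in the vehicle animals. In animals 38, 40 and 42 it reached 55.8, 45.8 and 49.4 CPM, whereas animals 39 and 41 were at 1.47 and 1.45 CPM. All treated animals lay above all vehicle animals, but the highest treated animal was 38.5-fold above the lowest. The log2 fold change of 6.14 (SE 1.18, edgeR adjusted p = 0.0086) is thus an average of unlike values. At 33 h, where all high-dose animals were alike at 42.6 ± 6.37 CPM (SD, n = 5), it was 5.47.

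ENSCPOT00000000175.3 (gene ENSCPOG00000000174, rat Entrez gene 24617) was at 2.30 to 5.80 CPM with vehicle. It was at 136, 89.3 and 230.0 CPM in animals 38, 40 and 42, and at 7.81 and 15.8 CPM in animals 39 and 41. Its log2 fold change was 4.66 (SE 0.863, edgeR adjusted p = 0.0077). ENSCPOT00000001279.3 (gene ENSCPOG00000001263, rat Entrez gene 29545) was at 0.440 to 1.01 CPM with vehicle, at 19.0, 15.6 and 20.1 CPM in animals 38, 40 and 42, and at 1.77 and 3.8 CPM in animals 39 and 41. ENSCPOT00000045066.1 (gene ENSCPOG00000030370, rat Entrez gene 60584) was at 0.383 to 2.22 CPM with vehicle, at 31.8, 15 and 63.7 CPM in animals 38, 40 and 42, and at 4.49 and 3.02 CPM in animals 39 and 41. In each of these 3 transcripts, animals 39 and 41 lay closest to vehicle.

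The remaining pair of rises were of low level. ENSCPOT00000044877.1 went from 0.499 ± 0.314 CPM to 8.50 ± 3.28 CPM (SD, n = 5 each), with treated animals at 6.82, 4.53, 7.34, 11.8 and 12 CPM. At 33 h it was at 0.144 ± 0.209 CPM with vehicle and 0.158 ± 0.159 CPM with the high dose (SD, n = 5 each), and its log2 fold change of 0.10 did not pass the threshold. ENSCPOT00000009824.3 had 3 counts in all vehicle animals together, all in animal 58, and 647 counts in the treated animals, a ratio of 219 per library total (95% interval 74.7 to 1066, counting error only). The treated animals were at 3.26, 0.679, 2.70, 6.70 and 10.2 CPM. Its fitted log2 fold change of 7.56, the largest of the 10, depends on how a count of 0 is treated and on the controls. It was 3.47 with all 10 vehicle animals (edgeR adjusted p = 0.023), 10.14 without vehicle animal 58, and 10.19 with vehicle animals 31 and 32 only, where the call was lost (adjusted p = 0.14). Vehicle animals of 33 h reached 2.26 CPM, and the high dose at 33 h gave 1.52, which did not pass the threshold (adjusted p = 0.42).

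**Figure D1:**
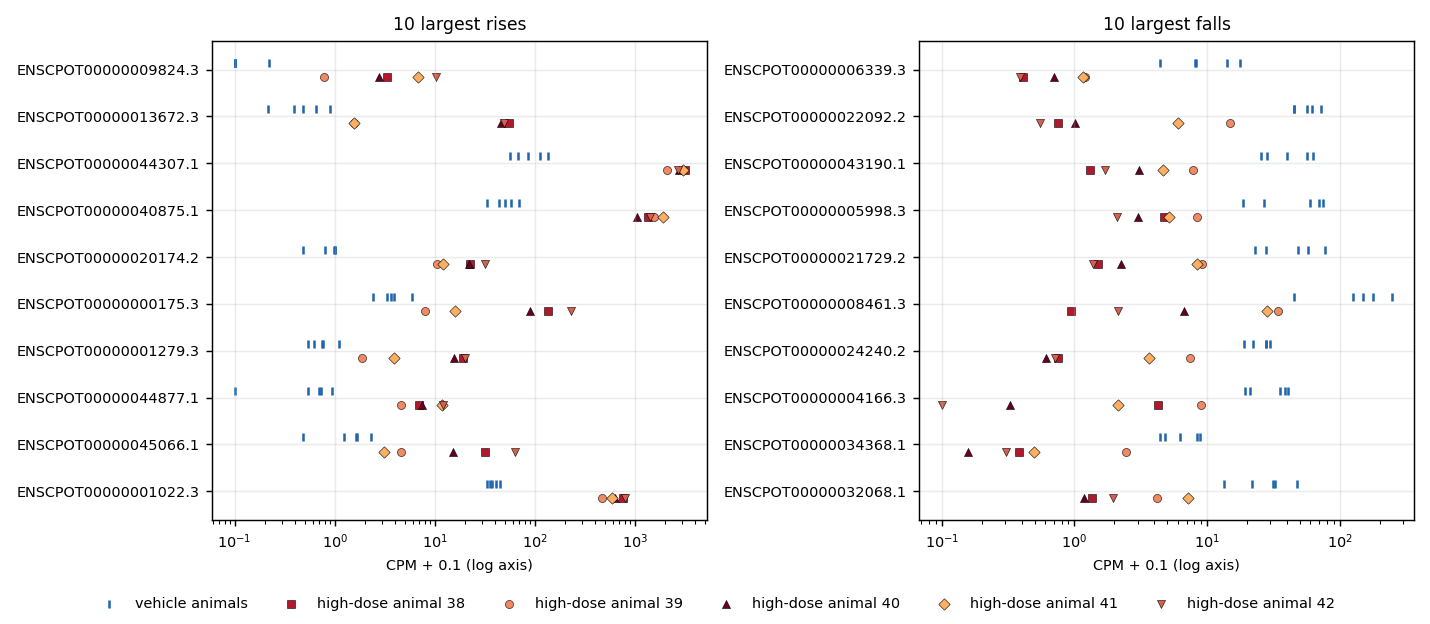
The 10 largest rises (left) and 10 largest falls (right) among transcripts called without overlap at a mean log2 CPM of 1 or more. The axis is CPM plus 0.1 on a log scale. Blue ticks are the 5 vehicle animals and coloured symbols the 5 high-dose animals at 9 h, with circles and diamonds for animals 39 and 41. The groups do not overlap in any row because the rows were chosen so. Animals 39 and 41 were the 2 treated animals closest to vehicle in 6 of the 10 rises and 9 of the 10 falls.

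The 10 largest falls without overlap, again among transcripts whose mean log2 CPM was 1 or more, had log2 fold changes of -3.96 to -3.27 and adjusted p-values of 0.0017 to 0.022 (edgeR). The next transcript, ENSCPOT00000014852.3, had -3.20. None of these 10 is in the readable part of the gene lists that pairs transcripts with rat genes, against 7 of the 10 rises, so the falls carry no identifier beyond their own. That part covers cultured cells only, and 2487 of the tested transcripts are in it.

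In the edgeR fit used throughout, ENSCPOT00000006339.3 had the largest fall of these 10, which was not so with limma-trend or without animal 39. It was at 4.29, 7.99, 17.5, 14.1 and 8.21 CPM in vehicle animals 31, 32, 58, 59 and 60, and at 0.309, 1.09, 0.597, 1.06 and 0.288 CPM in animals 38 to 42. Animals 39 and 41 kept the most. Its change was -3.96 (log2, SE 0.497, edgeR adjusted p = 0.0017), and -6.56 with the high dose at 33 h.

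ENSCPOT00000022092.2 was steady with vehicle at 44.8, 45.2, 71.6, 61.4 and 56.3 CPM. With the high dose it was at 0.646, 0.910 and 0.453 CPM in animals 38, 40 and 42, and at 14.8 and 5.96 CPM in animals 39 and 41. The 3 former animals had nearly lost the transcript, while animal 39 kept a good part of it. This is a log2 fold change of -3.64 (SE 0.800, edgeR adjusted p = 0.013). It was -4.86 without animal 39 and -4.85 with limma-trend. The low-dose animals at 9 h were likewise uneven, with 35.1 and 30.9 CPM in animals 33 and 34 and 1.57, 1.75 and 2.04 CPM in animals 35, 36 and 37 (scaled over all 30 libraries). Its change with the low dose, -2.02, did not pass the threshold (edgeR adjusted p = 0.13). At 33 h all high-dose animals were low, at 0.517 ± 0.258 CPM against 41.3 ± 6.36 CPM with vehicle (SD, n = 5 each).

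ENSCPOT00000024240.2, of the same length (1677 bases), was at 18.8 to 29.6 CPM with vehicle. It was at 0.646, 0.512 and 0.618 CPM in animals 38, 40 and 42 and at 7.32 and 3.57 CPM in animals 39 and 41. ENSCPOT00000034368.1 was at 4.29 to 8.76 CPM with vehicle and at 0.281, 2.34, 0.0569, 0.392 and 0.206 CPM in animals 38 to 42. In both transcripts animal 39 was the treated animal closest to vehicle.

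ENSCPOT00000008461.3 varied widely in both groups. It was at 45.4, 126, 247, 178 and 149 CPM in the vehicle animals and at 0.842, 34.1, 6.63, 28.0 and 2.02 CPM in animals 38 to 42. The highest treated animal, 39, was close to the lowest vehicle animal, 31. Its log2 fold change was -3.39 (SE 0.877), with the largest adjusted p-value of the 10 falls, 0.022 (edgeR).

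All 10 falls passed the threshold at 33 h in the same direction and 8 of the 10 rises did, in a comparison that called 49.2% of all transcripts in either direction. The other 5 falls started from 29.3 to 49.7 CPM on average with vehicle. ENSCPOT00000043190.1 fell to 3.63 ± 2.67 CPM, ENSCPOT00000005998.3 to 4.60 ± 2.45 CPM, ENSCPOT00000021729.2 to 4.41 ± 3.85 CPM, ENSCPOT00000004166.3 to 3.08 ± 3.69 CPM and ENSCPOT00000032068.1 to 3.07 ± 2.53 CPM (SD, n = 5 each). In ENSCPOT00000004166.3, treated animal 42 had no counts. This was the only one of the 10 falls where animals 39 and 41 were not both the closest to vehicle, since animal 38 (4.18 CPM) lay above animal 41 (2.04 CPM).

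The vehicle animals were uneven for these transcripts as well. In 9 of the 10 falls, animals 31 and 32 were the 2 lowest vehicle animals. In ENSCPOT00000005998.3, for example, they were at 18.6 and 26.8 CPM and animals 58 to 60 were at 69.3, 74.4 and 59.3 CPM. With only animals 31 and 32 as controls, ENSCPOT00000006339.3 was the one fall of the 10 that still passed the threshold, while the other 9 had log2 fold changes of -3.33 to -2.31. Among the 10 rises, ENSCPOT00000044307.1, ENSCPOT00000040875.1, ENSCPOT00000020174.2 and ENSCPOT00000001022.3 did, and the 6 that did not had log2 fold changes of 3.83 to 10.19. With only animals 58 to 60 as controls, all 20 transcripts kept their call. That fit had more controls, so its test was stronger for that reason alone. What separates these control animals is not given in the labels and was not tested.

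Changes were also followed by transcript level, using the vehicle animals of 33 h to set the level so that the compared animals did not choose it. The share of transcripts that fell grew with the level. It was 2.74% below 1 CPM, 9.00% from 1 to 10 CPM, 19.9% from 10 to 100 CPM, 36.5% from 100 to 1000 CPM and 50.0% at 1000 CPM and over, against 15.9% of all transcripts tested. The share that rose was 6.28%, 12.4%, 22.2%, 20.5% and 12.5% in the same order, against 16.9% in all. Rises therefore outnumbered falls up to 100 CPM, and falls outnumbered rises above it. The shares also reflect counting error, which is largest for rare transcripts. Large rises had another distribution, as 162 of the 551 rises of at least 2-fold came from below 1 CPM and only 33 from 100 to 1000 CPM. Falls of at least 2-fold numbered 74 of 2881 transcripts below 1 CPM, 84 of 1856 from 100 to 1000 CPM and 11 of 72 at 1000 CPM and over, so their share was higher in the abundant classes. Transcript length had a median of 2652 bases for the rises and 2470 bases for the falls, against 2506 bases for all transcripts tested.

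**Figure D2:**
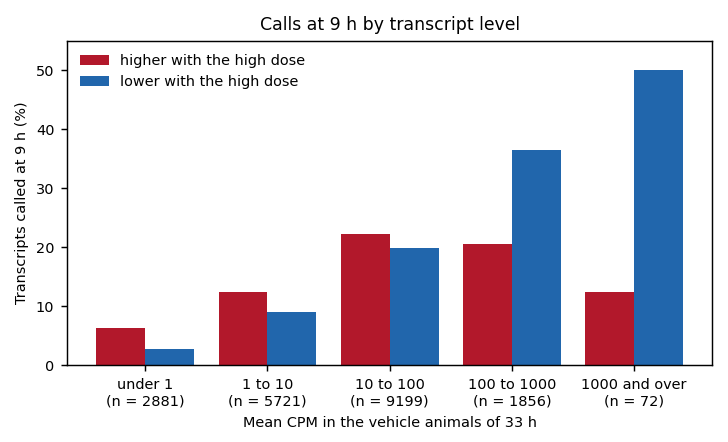
Share of transcripts called higher (red) or lower (blue) with the high dose at 9 h, by their mean CPM in the vehicle animals of 33 h, with the number of transcripts tested under each class. The share of falls grew from 2.74% to 50.0% with the level.

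The 100 most abundant transcripts of the 9 h vehicle kidneys, ranked by CPM, which is not scaled for length, had a mean of at least 805 CPM. Of these, 54 fell and 13 rose with the high dose, so 67% were called against 32.8% of all transcripts, and 54% fell against 15.9%. With vehicle animals 31 and 32 only, 1 fell and 2 rose, which is too few calls to show or deny a lean to falls. When tested against a fold change of 1.2, 33 fell and 6 rose. The 100 had a median log2 fold change of -0.36, against 0.02 over all transcripts tested. Of the 100 highest by TPM, which is scaled for length, 57 were called. Because they were ranked on the same vehicle animals, a high value in those animals also raises the chance of a place in the list. Of the 67, 47 showed no overlap (40 falls and 7 rises) and 16 falls and 2 rises were of at least 2-fold.

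Among the abundant rises, ENSCPOT00000037997.1 (gene ENSCPOG00000039887, rat Entrez genes 24188 and 29651) was at 763, 799, 948, 996 and 936 CPM with vehicle. It was at 2734, 3517, 2518, 5311 and 3173 CPM in animals 38 to 42, and animals 39 and 41 were the 2 highest. The log2 fold change was 1.96 (SE 0.195, edgeR adjusted p = 4.1e-04). The low dose of the same time gave 2.02. By 33 h, the high dose gave 0.51.

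ENSCPOT00000008570.3 showed the opposite order. It was at 1252, 880.4, 1137, 1031 and 955 CPM with vehicle, and at 3455, 1221, 2903, 1314 and 4001 CPM in animals 38 to 42. Animal 39 lay within the vehicle range and animal 41 just above it. Its log2 difference was 1.29 (SE 0.320, edgeR adjusted p = 0.018), and at 33 h it was 3.22, when the level reached 9472 ± 1326 CPM (SD, n = 5).

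The other 4 named abundant rises were smaller and did not overlap with vehicle. ENSCPOT00000002042.3 (gene ENSCPOG00000002015, rat Entrez gene 299331) rose in all treated animals to 1931 to 2450.3 CPM from 1007 to 1350.3 CPM, a log2 fold change of 0.92 (SE 0.0944). ENSCPOT00000044321.1 was at 769 to 865 CPM with vehicle and at 1805, 1182, 1647, 1264 and 1784 CPM in animals 38 to 42. ENSCPOT00000013600.3 and ENSCPOT00000000349.3 (gene ENSCPOG00000000346, rat Entrez genes 25745 and 100911597) had log2 fold changes of 0.76 and 0.75. In the last 3 transcripts animals 39 and 41 were again the lowest of the treated animals. These 3 and ENSCPOT00000008570.3 lost their call with vehicle animals 31 and 32 only (edgeR adjusted p = 0.16 to 0.24), with log2 fold changes of 0.67 to 1.27.

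The abundant falls without overlap reached about 4-fold. ENSCPOT00000002769.3 was at 1346, 1319, 1622, 1903 and 1496 CPM with vehicle and at 272, 588, 288, 471 and 269 CPM in animals 38 to 42. The 3 lowest treated animals differed by little, and animals 39 and 41 stood above them. The log2 fold change was -2.03 (SE 0.238, edgeR adjusted p = 0.0011), and it also passed the threshold with only vehicle animals 31 and 32 as controls.

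ENSCPOT00000042426.1 (gene ENSCPOG00000034579, rat Entrez gene 313089) was at 901, 1067, 1356, 1462 and 1133 CPM with vehicle, and at 138, 588, 126, 464 and 133 CPM in animals 38 to 42. At 33 h its level was 29.4 ± 14.9 CPM with the high dose against 1045 ± 107 CPM with vehicle (SD, n = 5 each). Its log2 fold change was -2.03 at 9 h (SE 0.464, edgeR adjusted p = 0.015) and -5.16 at 33 h, and the difference between the times was not tested here. The remaining 3 falls did not overlap with vehicle either. ENSCPOT00000009591.3 was at 767 to 1285 CPM with vehicle and at 175, 502, 159.9, 449 and 144 CPM in animals 38 to 42. ENSCPOT00000001765.3 was at 2018 to 3042 CPM with vehicle and at 570.0, 1281, 441, 939 and 675 CPM in animals 38 to 42. ENSCPOT00000006650.3 was at 769 to 1498 CPM with vehicle and at 112, 340.4, 85.2, 538 and 187 CPM in animals 38 to 42. In all of these, animals 39 and 41 kept the highest levels among the treated animals. These 3 and ENSCPOT00000042426.1 lost their call with vehicle animals 31 and 32 only (edgeR adjusted p = 0.18 to 0.21), with log2 fold changes of -2.20 to -1.39.

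**Figure D3:**
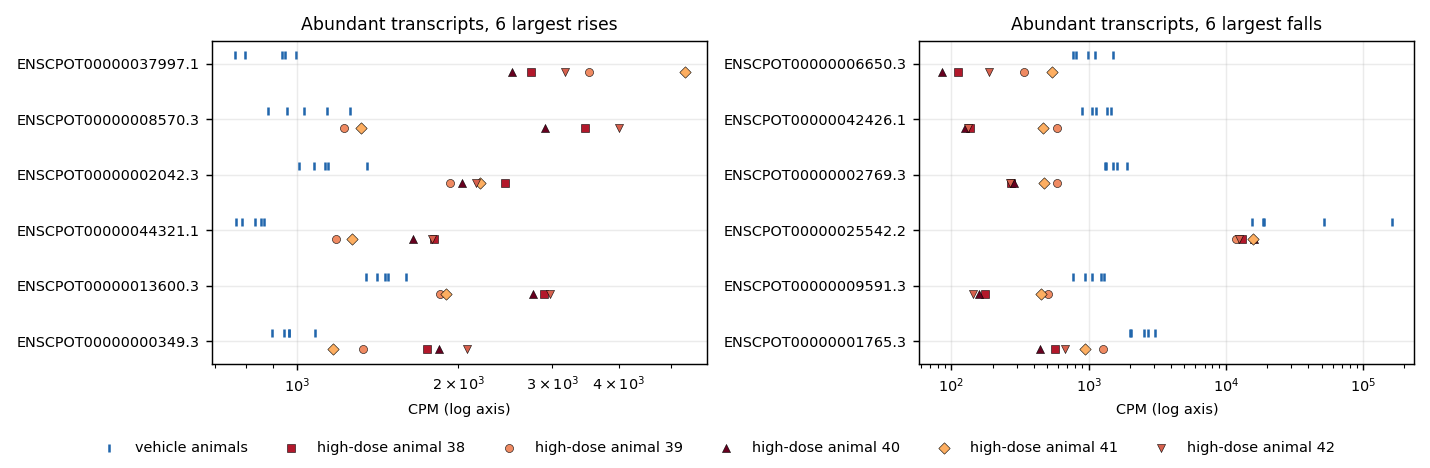
The 6 largest rises (left) and 6 largest falls (right) among the 100 transcripts most abundant in 9 h vehicle kidneys, with CPM on a log axis. Blue ticks are the vehicle animals and coloured symbols the high-dose animals, with circles and diamonds for animals 39 and 41. ENSCPOT00000025542.2 reaches 162592 CPM in vehicle animal 59, and its groups overlap.

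The transcript with the highest mean in 9 h vehicle kidneys, ENSCPOT00000025542.2, was at 15599, 18941, 51799, 162592 and 18678 CPM in vehicle animals 31, 32, 58, 59 and 60. With the high dose it was at 13162, 11779, 15937, 15697 and 12507 CPM. The groups overlapped, and vehicle animals 58 and 59 set the vehicle mean. The log2 fold change of -1.95 (SE 0.626, edgeR adjusted p = 0.046) did not pass the threshold in 4 alternatives. It was -1.32 with limma-trend (adjusted p = 0.15), -1.28 with all 10 vehicle animals as controls (edgeR adjusted p = 0.15) and -0.33 with vehicle animals 31 and 32 only (edgeR adjusted p = 0.26), and the test against a fold change of 1.2 gave an adjusted p of 0.11. Without vehicle animal 59 it was -0.93 and still called (edgeR adjusted p = 0.084). With the high dose at 33 h, it was instead higher than with vehicle, by 0.97 on the log2 scale.

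Of the 12 most abundant transcripts, all had log2 fold changes below 0 (-1.95 to -0.07), but only ENSCPOT00000025542.2 and ENSCPOT00000015258.3 passed the threshold. ENSCPOT00000015258.3 was at 12284, 9674, 17162, 11712 and 12312 CPM with vehicle and at 6541, 9999.9, 8047, 10587 and 10634 CPM with the high dose, a log2 fold change of -0.46 (SE 0.175, edgeR adjusted p = 0.08). The groups overlapped in each of the 12 transcripts. In 7 of them, animals 31 and 32 were the 2 lowest vehicle animals. The 100 abundant transcripts together held 25.6% to 37.3% of the counts with vehicle and 21.7% to 25.8% with the high dose. Without ENSCPOT00000025542.2, they held 23.6% to 27.4% (median 24.5%) with vehicle and 20.3% to 24.2% (median 21.9%) with the high dose.

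At the other end, 105 of the tested transcripts had at most 3 counts in every 9 h vehicle animal, and 39 of these were called higher (37.1%, against 16.9% of all transcripts). They passed the filter on low counts through groups other than the 9 h vehicle animals, the high dose included, so this share describes a selected set. Most were not raised in all treated animals, since 33 of the 39 had no counts in at least 1 of them. The 3 largest rises among these 39 are described here. ENSCPOT00000043024.1 had no counts with vehicle and 281 with the high dose, with 1.60, 2.83, 1.91, 0 and 3.38 CPM in animals 38 to 42. Its mean was at least 95.2-fold higher, counted against 3 counts over the vehicle group (edgeR adjusted p = 0.017). It also had no counts in any low-dose animal at 9 h, although the direct test between the doses did not pass the threshold (adjusted p = 0.99). A vehicle animal of 33 h reached 2.29 CPM. With all 10 vehicle animals, the fitted log2 fold change went from 8.85 to 3.09 and the call was lost (edgeR adjusted p = 0.11), as it was with vehicle animals 31 and 32 only (0.19). The other 2 were very uneven among the treated animals. ENSCPOT00000001991.3 had 2 counts with vehicle and 1026 with the high dose, a ratio of 522 per library total (95% interval 144 to 4313, counting error only), and was at 22.8 CPM in animal 40 and at 0 in animal 41. Its fitted log2 fold change of 8.49 was 5.23 with all 10 vehicle animals, 6.94 without animal 40, and no longer called with vehicle animals 31 and 32 only (edgeR adjusted p = 0.23). ENSCPOT00000009517.3 had no counts with vehicle and 1114 with the high dose, at least 378-fold more, but these came mostly from animals 40 and 42 (7.71 and 34.6 CPM) and its adjusted p-value was 0.074 (edgeR). Animal 42 alone held 840 of these counts, and without it the fitted log2 fold change went from 10.97 to 8.88. The transcript no longer passed the threshold in 12 of 21 alternatives.

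The level of response was then described for each treated animal. A score was taken over 8772 transcripts that were called between other animals, those given the high dose or vehicle and killed at 33 h. It is the mean log2 difference from the 9 h vehicle animals, signed by the direction of the 33 h effect. Animals 38, 40 and 42 scored 0.44, 0.44 and 0.48, and animals 39 and 41 scored 0.16 and 0.16. Vehicle animals 31 and 32 scored 0.07 and 0.03, and animals 58 to 60 scored -0.02, -0.05 and -0.03, so all 5 treated animals lay above all vehicle animals, 2 of them by a smaller margin. The mean was 0.34 ± 0.162 with the high dose and 0 ± 0.0483 with vehicle (SD, n = 5 each; two-sided exact permutation test, p = 0.0079, which is the least that this design can give, or 0.012 when adjusted by Benjamini-Hochberg for 3 tests). The spread within the treated group was thus over 3 times that of the vehicle group. No high-dose animal scored between animal 41, at 0.16, and animal 38, at 0.44.

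The score kept this order when it was taken over the 1438 transcripts changed at least 2-fold at 33 h, where animals 38 to 42 scored 1.12, 0.42, 1.18, 0.45 and 1.23. Vehicle animals 31 and 32 were again the highest controls, at 0.21 and 0.11 against -0.14 to -0.08 in animals 58 to 60. A count that chooses no transcripts by treatment also placed animals 39 and 41 lowest. The level lay outside the range of the 5 vehicle animals for 59.7%, 42.5%, 59.5%, 44.3% and 62.5% of all tested transcripts in animals 38 to 42, where 6 interchangeable animals would give 33.3%. In the low-dose animals this share was 39.5% to 59.0%. The totals of animals 39 and 41 were 25560645 and 25424037 estimated counts, while animal 42, with the highest score, had the lowest total, 23134713. They had 20644 and 20485 transcripts with at least 1 count, against 20655 to 21182 in the other treated animals, and the part of these differences in the score was not tested.

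**Figure D4:**
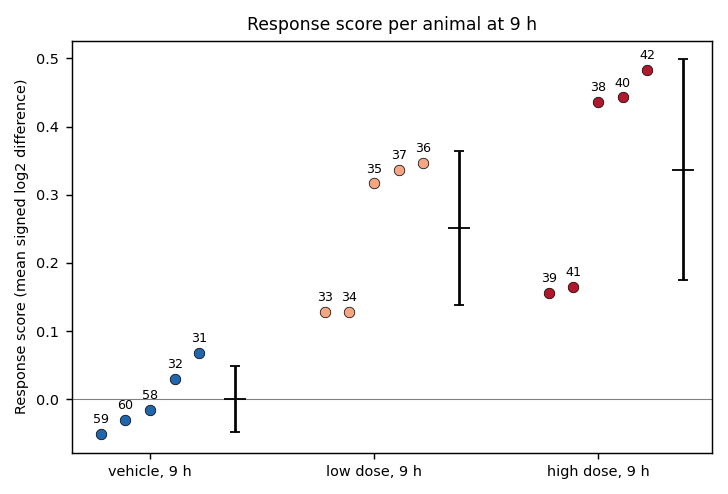
Response score of each animal at 9 h on the log2 scale, with the animal's number above its point and bars for the mean and SD of each group (n = 5). High-dose animals 39 and 41 scored 0.16 and the other high-dose animals 0.44 to 0.48, and low-dose animals 33 and 34 scored 0.13.

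The low-dose animals of 9 h, which share their vehicle controls with the high dose, were also uneven. Animals 33 and 34 scored 0.13 and 0.13, and animals 35, 36 and 37 scored 0.32, 0.35 and 0.34. High-dose animals 39 and 41 thus lay between the low-dose animals 33 and 34 on one side and 35 to 37 on the other. The mean score was 0.25 ± 0.113 (SD, n = 5) with the low dose. The doses differed by 0.0855 in mean score, less than the spread within either dose (exact permutation test, p = 0.405, two-sided). A direct test between the doses called 0 transcripts with edgeR and 14 with DESeq2, and 638 had an unadjusted p-value under 0.05 with edgeR. All 10 of the largest rises and 8 of the 10 largest falls also passed the threshold with the low dose against the same vehicle animals (a comparison in which 23.1% of all transcripts did), with log2 fold changes of 3.19 to 5.73 in the rises and -3.53 to -1.94 in all 10 falls.

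Animals 39 and 41 were together more often than any other pair of high-dose animals. They were the 2 treated animals closest to vehicle in 66.0% of the transcripts called higher and 71.8% of those called lower, where an even division over the 10 possible pairs would give 10% each. The transcripts called at 9 h were chosen with these animals. Among transcripts chosen by the 33 h animals, the shares were 48.9% of those higher and 57.3% of those lower at 33 h. Low-dose animals 33 and 34 were such a pair as well, in 61.9% and 63.1% of the transcripts called with the high dose and in 40.9% and 45.3% of those chosen at 33 h. Over all tested transcripts, called or not, animals 39 and 41 were the 2 lowest of the treated animals in 23.3% and the 2 highest in 23.4%, and for every other pair these shares were between 5.6% and 17.0%. These shares describe 5 animals, and transcripts are not independent replicates.

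**Figure D5:**
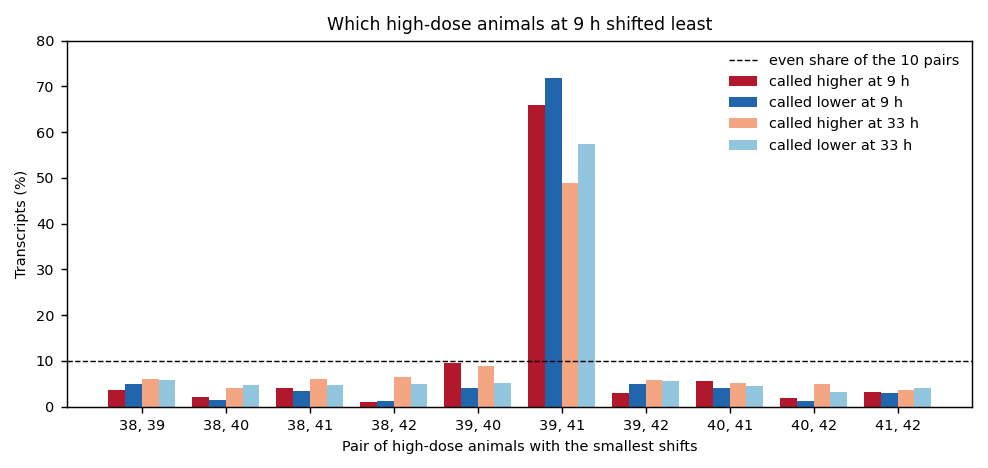
Share of transcripts for which each pair of high-dose animals at 9 h was the closest to vehicle, for transcripts called at 9 h (red and blue) and for those called at 33 h in other animals (light colours). The dashed line is an even share of the 10 pairs, and the pair of animals 39 and 41 reaches 48.9% to 71.8%.

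The spread among the treated animals is given for changes of at least 2-fold as a description, since these were chosen on the same animals. Among the 551 rises of at least 2-fold, the treated animals spanned more than 4-fold in 108 (19.6%), whereas the vehicle animals did so in 2.72%. Among the 487 falls of at least 2-fold, they spanned more than 4-fold in 64 (13.1%), against 6.98% in the vehicle animals. Over all transcripts tested, these shares were 4.72% and 4.28%. The rises of at least 2-fold were of lower level, with a median of 3.56 CPM in the vehicle animals of 33 h against 13.9 CPM for all transcripts tested and 12.3 CPM for the falls of at least 2-fold. The part of level and of the choice of transcripts in these spreads was not tested. At the same time, 176 of the rises (31.9%) and 160 of the falls (32.9%) of at least 2-fold stayed within a 2-fold range among the treated animals. The even and uneven rises described above are examples of both.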

How the data were processed

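The authors pseudo-aligned 75-bp paired reads with kallisto 0.42.4 to the Ensembl guinea pig transcriptome, whose release is not given in the sources used here. They deposited, for each animal, estimated counts per transcript, which kallisto divides among similar transcripts and which are not normalized. The deposited TPM values are scaled for transcript length and to a fixed total, and were used only for alternatives. Estimated counts were rounded to whole numbers. With R 4.3.3 and edgeR 4.0.16, transcripts were filtered with filterByExpr over all 30 animals, normalized with TMM, and tested with glmQLFit and glmQLFTest on the 10 compared animals only. The study used Sleuth, which was not run here. CPM values are counts scaled by the TMM-adjusted total to a common sum. Ranges among animals were taken on CPM plus 0.5. The response score used log2 CPM with a prior count of 2 and transcripts whose mean log2 CPM was 1 or more.

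The named transcripts were the 10 largest rises and falls called without overlap at a mean log2 CPM of 1 or more, the 6 largest rises and falls among the 100 most abundant with vehicle, the 3 largest rises among transcripts with at most 3 counts in every vehicle animal, and ENSCPOT00000025542.2. The 12 most abundant and the transcripts with a 4-fold gap were added after their values were seen. The transcripts, lists and tests were chosen with earlier results of these data known. Gene lists and cell type markers were not used, because no table used here pairs the transcripts with symbols. The depth of each library limits the precision of low values, and counting intervals cover counting error only. Alternatives used DESeq2 1.42.0, limma 3.58.1, RLE normalization, other filters, other controls and leaving out each animal in turn. The edgeR test was also run on simulated counts with 200 changed transcripts and no uneven response. That simulation differs from these data, and its outcome is not reported here. Permutation tests used scipy 1.17.1.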

Additional observations from a re-analysis of the deposited data

Results flagged for a closer look

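In 74 groups of 5 values checked for an animal far from the rest, 4 held such an animal. A rate of 1 in 20 would give 3.7. The transcripts were chosen on these same animals, ENSCPOT00000025542.2 because animal 59 stood apart, so the count cannot be set against that rate. ENSCPOT00000009824.3 was at 0.119 CPM in vehicle animal 58 and at 0 in the other vehicle animals. ENSCPOT00000025542.2 was at 162592 CPM in vehicle animal 59, against 51799 CPM in the next. ENSCPOT00000034368.1 was at 2.34 CPM in high-dose animal 39, against 0.392 CPM in the next. ENSCPOT00000009517.3 was at 34.6 CPM in high-dose animal 42, against 7.71 CPM in the next.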

How the results depend on the processing

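The number of transcripts called was 4786 to 7647 under the alternatives that kept at least 3 controls and tested against no change, except for 4538 with a limit of 0.05 on the adjusted p-value and the fits that left out an animal. It fell to 125 with only vehicle animals 31 and 32, where fewer controls also weaken the test. Tested against a fold of 1.2, it was 1990. With these 2 alternatives, the calls without overlap were 125 and 1618, and the abundant transcripts called were 3 and 39. Calls of at least 2-fold were 86 with vehicle animals 31 and 32. Calls without overlap were 1645 with all 10 vehicle animals, where no overlap is a stricter condition. Leaving out 1 animal at a time gave 4474 (without animal 38) to 7451 (without animal 41) calls, 3048 to 4549 without overlap, 751 to 1359 of at least 2-fold, 55 to 74 abundant transcripts, and a score difference of 0.30 to 0.38. For the doses compared directly, DESeq2 called 14 transcripts and leaving out 1 animal gave 0 to 2. DESeq2 for the doses and leaving out animals for the doses and the score were chosen after seeing the data. Of the 767 values of named transcripts under alternatives, 725 kept their direction and call, 42 lost the call, and 0 reversed. No paired analysis was possible because the groups share no animal numbers. The causes of these differences were not tested. At 23134713 to 36072327 counts per animal, transcripts with a few counts, such as ENSCPOT00000009824.3 with vehicle, have wide counting intervals.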
